A study of Canis lupus familiaris with 12 samples.

Results

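The genes described are 8 genes of MHC class I antigen processing, measured in the hippocampus of beagle dogs: B2M, TAP1, TAP2, TAPBP, PSMB8, PSMB9, PSMB10 and NLRC5. They were taken by symbol from a deposited table of 31158 gene models, and all 8 listed symbols were found in it. Of these, 7 had a mean level high enough to be tested, and NLRC5 did not.

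MHC class I molecules show peptides from inside the cell to CD8 T cells. The proteasome cuts cytosolic proteins into peptides, the TAP1 and TAP2 transporter carries them into the endoplasmic reticulum, and tapasin, the product of TAPBP, holds an empty class I molecule beside the transporter until a peptide binds. The class I molecule is a heavy chain paired with the light chain B2M, and NLRC5 is a transactivator of class I genes. Interferons raise many of these genes together, and swap the constitutive catalytic subunits of the proteasome for the inducible PSMB8, PSMB9 and PSMB10. In brain, microglia and endothelium are known for class I expression, and neurons for low and regulated expression.

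The pacing arm was beagles whose atria had been paced rapidly for 2 weeks, a treatment used to bring about atrial fibrillation, and the sham arm was beagles given the operation alone. Each arm has 3 hippocampal libraries, made from bulk tissue with a stranded mRNA kit. The study asked how atrial fibrillation bears on cognition, and it also holds 6 exosome microRNA samples, which are not analysed here. The labels give neither the age or sex of the dogs nor whether each sample came from its own dog, so p-values measure the spread between these samples, which may be technical.

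Libraries held 35003483 to 43425895 assigned reads in pacing and 36573169 to 51789497 in sham. Values are RPKM, read counts scaled to exon length and to the assigned reads of the library. Hippocampal markers were present in every library, with NEUROD6 at 188.1 to 345.0 RPKM and PROX1 at 4.82 to 7.90. Sham replicate 2 stood apart from the other libraries on the first principal component (39.6, against -13.5 to 8.61), with the highest summed choroid plexus markers (454.6 RPKM, against 5.86 to 158.9) and the lowest summed neuron markers (1283 RPKM, against 1899 to 2144). Sham replicate 1 had the lowest choroid plexus sum, 5.86 RPKM.

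B2M and TAP2 differed in opposite directions between the arms, and none of the 8 genes passed the test. B2M was higher in all 3 pacing libraries than in any sham library, by 1.31-fold. TAP2 was lower in all 3 pacing libraries, with sham 1.39-fold above pacing, and so was TAPBP, 1.33-fold. TAP1 and the 3 inducible proteasome subunits overlapped between the arms. Over all 16090 genes tested with limma, 0.0249% passed at a Benjamini-Hochberg adjusted p under 0.05, which is 4 genes, and 0 of the 7 tested class I genes were among them.

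The arms did not overlap for 3 of the 7 tested genes, 1 higher and 2 lower in pacing. Over all genes tested the share was 16.2%, with 4.92% higher and 11.3% lower in pacing. An unadjusted p under 0.05 was found for the same 3 genes, B2M, TAP2 and TAPBP, and for 9.15% of all genes tested. By arm mean 3 of the 7 were higher in pacing, and 41.1% of all genes tested. The arm mean in such counts of higher and lower genes is that of log2(RPKM + 1). The median log2 difference, pacing minus sham, was -0.04, against -0.04 over all genes tested. With NLRC5 included the median of the 8 was -0.01.

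**Figure D1:**
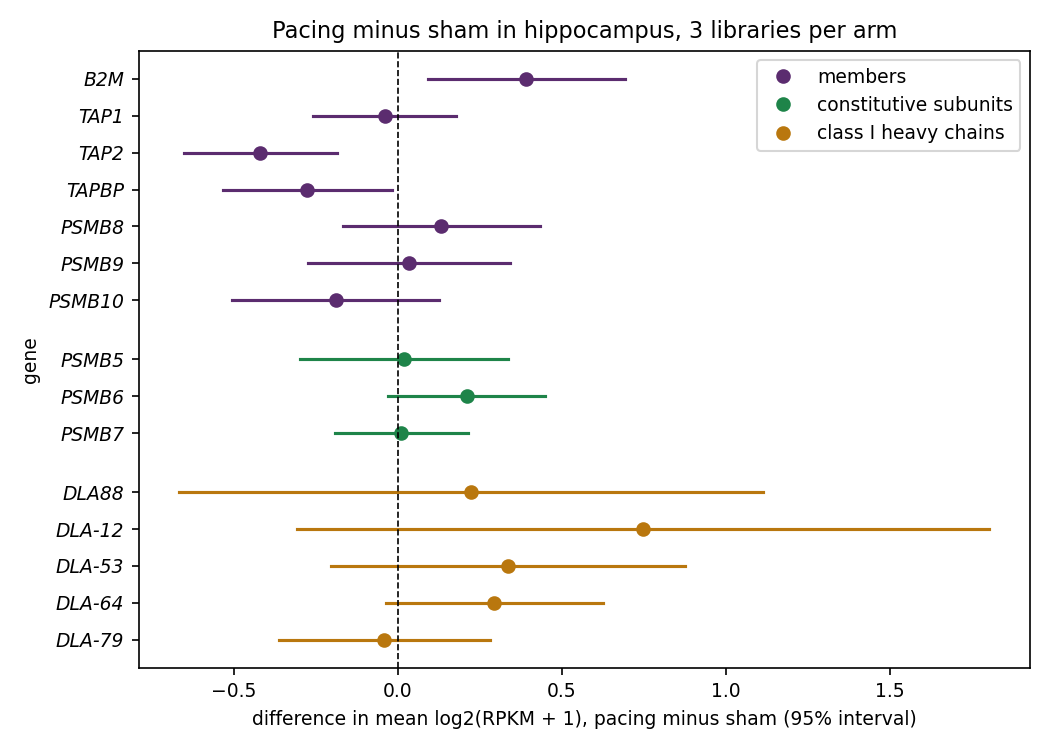
Difference in mean log2(RPKM + 1), pacing minus sham, with its 95% interval from limma (3 libraries per arm), for the 7 tested class I processing genes, the 3 constitutive proteasome subunits and the 5 tested class I heavy chains. The intervals of B2M, TAP2 and TAPBP lie on one side of 0 before adjustment, that of B2M above 0 and those of TAP2 and TAPBP below it.

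The 8 genes covered a wide range of levels, and from the highest mean RPKM to the lowest they were B2M, TAP2, TAP1, PSMB9, TAPBP, PSMB8, PSMB10 and NLRC5. B2M averaged 85.6 RPKM over the 6 libraries, above 95.1% of the tested genes, and TAP2 averaged 8.06, above 62.3%. TAP1 averaged 5.35 RPKM, PSMB9 2.65, TAPBP 2.01, PSMB8 1.90 and PSMB10 1.60. The ranges of PSMB9 and TAPBP overlapped over the 6 libraries, but PSMB9 was above TAPBP within every library. The ranges of TAPBP and PSMB8 and of PSMB8 and PSMB10 also overlapped, and the order within these pairs changed between libraries. PSMB9 (lowest 2.19 RPKM) lay above PSMB10 (highest 1.90 RPKM). NLRC5 averaged 0.172 RPKM and was the lowest of the 8 in every library.

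**Figure D2:**
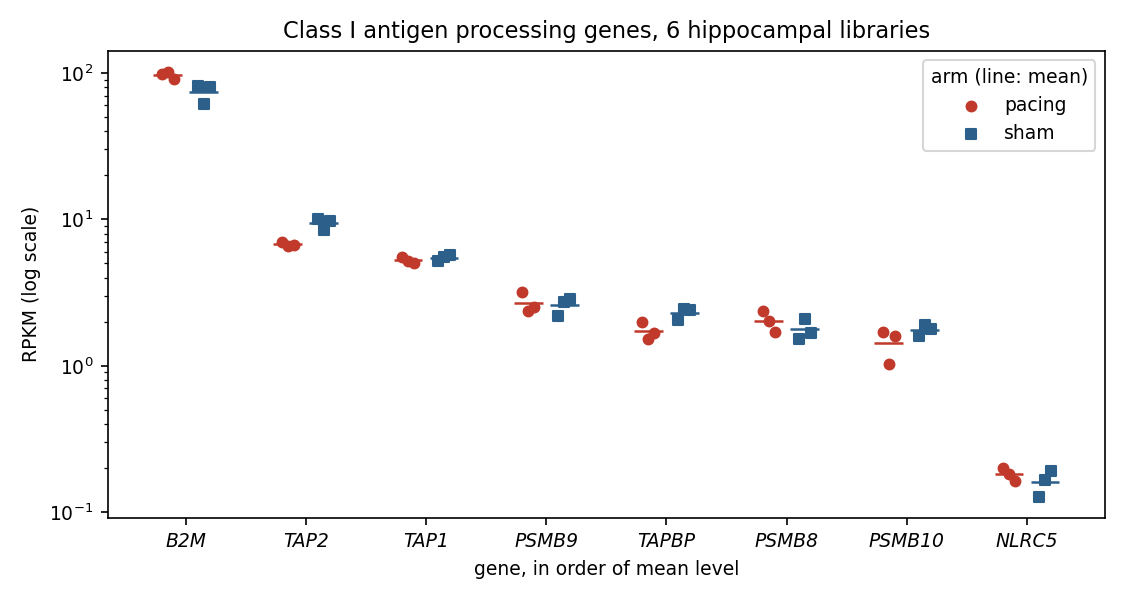
RPKM of each gene in the 6 hippocampal libraries on a log axis, with circles for pacing, squares for sham and a line at each arm's mean. B2M lies between 61.7 and 101.4 RPKM, NLRC5 between 0.128 and 0.201, and the other genes between 1.02 and 9.98.

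B2M, the light chain shared by all class I molecules, lies on chromosome 30 from 11331574 to 11337991 on the plus strand, in 4 exon blocks (coordinates are on CanFam3.1, as the deposited table gives them). It stood at 98.9, 101.4 and 90.6 RPKM in pacing replicates 1 to 3 and at 80.8, 61.7 and 80.0 RPKM in sham replicates 1 to 3. Every pacing library was above every sham library, and the lowest value was that of sham replicate 2. B2M averaged 97.0 ± 5.67 RPKM after pacing and 74.2 ± 10.8 after the sham operation (SD, n = 3 each). The log2 difference was 0.39 with a standard error of 0.13 (95% interval 0.09 to 0.69), and limma gave an adjusted p = 0.455. Without sham replicate 2 the log2 difference of B2M was 0.27, that of TAP2 -0.49 and that of TAPBP -0.25.

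The heavy chains that pair with B2M were described beside it, as they are the other part of the same molecule. DLA88 encodes the main classical heavy chain of the dog, and DLA-12, DLA-64 and DLA-79 are further class I genes. Of the 5 heavy chains tested 4 were higher in pacing by arm mean, 0 passed, and none of them was apart between the arms. Over all genes tested 41.1% were higher in pacing and 16.2% were apart. DLA-64 averaged 33.6 ± 5.75 RPKM with pacing against 27.1 ± 2.90 with sham (log2 difference 0.29, adjusted p = 0.584 in limma). DLA-79 stood at 5.26 ± 0.271 against 5.50 ± 1.06 RPKM, and DLA-53 at 6.53 ± 0.191 against 5.20 ± 2.02. DLA-12a was below 0.219 RPKM in every library and was not tested.

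DLA-12 and DLA88, the 2 heavy chain genes with the highest mean RPKM, had the widest ranges in RPKM between libraries. DLA-12 stood at 58.4, 57.1 and 48.7 RPKM in pacing and at 13.9, 40.6 and 57.4 RPKM in sham. DLA88 stood at 44.3, 41.9 and 27.5 RPKM in pacing and at 59.4, 20.5 and 25.8 RPKM in sham. Sham replicate 1 thus had the lowest DLA-12 and the highest DLA88. Class I heavy chains are near-identical and polymorphic, so how reads were split among them is uncertain.

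Summed over the 6 heavy chain genes, which depends less on how reads were split among them, pacing libraries held 145.9, 140.0 and 128.6 RPKM and sham libraries 107.1, 97.1 and 127.2. The sums did not overlap, with a narrow gap between pacing replicate 3 and sham replicate 3. The sum was 1.25-fold higher in pacing by arm mean, and B2M 1.31-fold. The ratio of B2M to the heavy chain sum was 0.678, 0.724 and 0.705 in pacing and 0.754, 0.636 and 0.628 in sham, and there the arms overlapped. These sums and ratios were chosen after the values were seen and carry no test.

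TAP1 and TAP2 encode the partner subunits of the peptide transporter, which needs both to work. Both lie on the minus strand of chromosome 12, TAP2 from 2407512 to 2417469 and TAP1 from 2424049 to 2432165, each in 13 exon blocks. TAP2 stood at 7.03, 6.52 and 6.67 RPKM in pacing and at 9.98, 8.46 and 9.68 RPKM in sham. The pacing libraries lay close together, and all were below the lowest sham library. TAP2 averaged 6.74 ± 0.258 RPKM after pacing and 9.38 ± 0.809 after the sham operation (SD, n = 3 each). The log2 difference was -0.42 with a standard error of 0.10 (95% interval -0.65 to -0.19), and TAP2 ranked 166 of the 16090 tested genes by p (limma, adjusted p = 0.350).

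TAP1 did not separate the arms. It stood at 5.54, 5.19 and 5.05 RPKM in pacing and at 5.15, 5.49 and 5.68 RPKM in sham, the narrowest spread of the 8 genes relative to their means over the 6 libraries. The log2 difference was -0.04 (95% interval -0.26 to 0.18, limma adjusted p = 0.910), and it turned to 0.01 under median-of-ratios or quantile scaling. The ratio of TAP2 to TAP1 within a library needs no scaling between libraries. It was 1.27, 1.26 and 1.32 in pacing and 1.94, 1.54 and 1.71 in sham, a description chosen after the values were seen. TAP2 was above TAP1 per length in every library.

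TAPBP encodes tapasin, which bridges the transporter and the class I molecule and edits the bound peptide. The gene lies on the minus strand of chromosome 12 from 2740276 to 2751808, in 8 exon blocks. It stood at 1.99, 1.53 and 1.67 RPKM in pacing and at 2.06, 2.43 and 2.42 RPKM in sham. All pacing libraries were lower, with pacing replicate 1 and sham replicate 1 almost level. The log2 difference was -0.28 with a standard error of 0.11 (95% interval -0.54 to -0.02, limma adjusted p = 0.532).

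**Figure D3:**
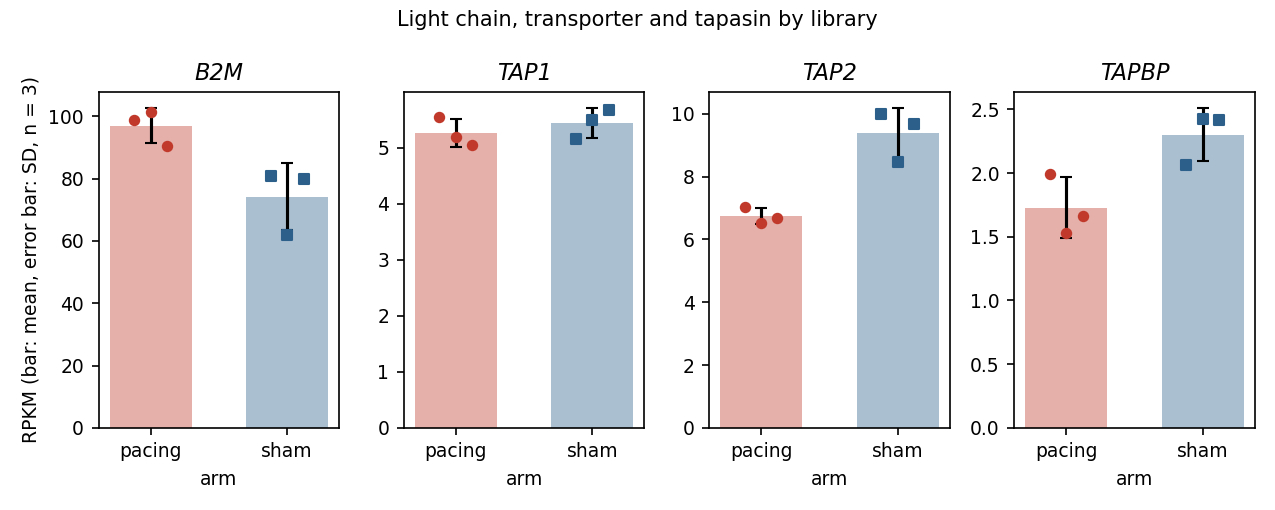
RPKM of B2M, TAP1, TAP2 and TAPBP in each library, with bars from 0 at the arm mean and error bars of 1 SD (n = 3). The B2M points are all higher in pacing, the TAP2 and TAPBP points all lower, and the TAP1 points overlap.

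Other genes of the peptide loading machinery went both ways. Of 10 tested loading and trimming genes, 4 were higher and 6 lower in pacing by arm mean of log2(RPKM + 1). Of the 10, 0 passed and 0 were apart, and the median log2 difference was -0.02. Over all genes tested 41.1% were higher in pacing and 16.2% were apart. The chaperone gene HSPA5 averaged 94.5 ± 7.61 RPKM with pacing against 129.9 ± 33.6 with sham, CALR (calreticulin) at 318.9 ± 31.0 against 390.3 ± 95.1 and SEC61A1, a translocon subunit, at 5.28 ± 0.267 against 5.87 ± 0.761. The log2 difference of HSPA5 was -0.43 (95% interval -0.85 to -0.003, limma adjusted p = 0.544), and HSPA5 was the 1 gene of the 10 with an unadjusted p under 0.05. In each of these 3 genes sham replicate 2 had the highest value, and the arms overlapped. The peptide-trimming enzyme ERAP1 stood at 4.12, 4.41 and 4.77 RPKM in pacing and at 2.48, 5.85 and 4.13 RPKM in sham, and the arms overlapped. The tapasin relative TAPBPL was low in both arms, at 0.674 against 0.598 RPKM by mean.

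The inducible catalytic subunits of the proteasome showed no common direction. PSMB8, on chromosome 12 from 2419456 to 2422832 in 6 exon blocks, stood at 2.37, 2.03 and 1.71 RPKM in pacing and at 1.53, 2.10 and 1.69 RPKM in sham. The arms overlapped, with a log2 difference of 0.13 (95% interval -0.17 to 0.43, limma adjusted p = 0.760). PSMB9, from 2432287 to 2438920 on the same chromosome in 7 exon blocks, stood at 3.21, 2.35 and 2.51 RPKM in pacing and at 2.19, 2.74 and 2.87 RPKM in sham. Its log2 difference was 0.03 (95% interval -0.28 to 0.34), and without pacing replicate 1, the highest library, it was -0.07. It was also negative without sham replicate 1, at -0.05.

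PSMB10 lies on chromosome 5 from 81560750 to 81563571, in 8 exon blocks. It stood at 1.70, 1.02 and 1.59 RPKM in pacing and at 1.60, 1.90 and 1.79 RPKM in sham. Pacing replicate 2 was the lowest of the 6 and pacing replicate 1 lay above sham replicate 1, so the arms overlapped. The log2 difference was -0.19 (95% interval -0.51 to 0.12, limma adjusted p = 0.675). The intervals of all 3 subunits include 0.

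Their constitutive counterparts were much more abundant per length in every library. PSMB5, replaced by PSMB8 in the inducible core, was 12.9 to 22.5-fold above PSMB8. PSMB6 was 5.04 to 7.40-fold above PSMB9, and PSMB7 was 31.0 to 60.0-fold above PSMB10. PSMB6 averaged 17.4 ± 1.48 RPKM with pacing against 14.9 ± 0.976 with sham, apart between the arms but not passing (log2 difference 0.21, limma adjusted p = 0.585). PSMB5 stood at 32.2 ± 2.31 against 32.0 ± 5.47 RPKM and PSMB7 at 59.3 ± 2.02 against 58.9 ± 2.69, differences smaller than the spread between libraries.

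The share of the 3 inducible subunits among all 6 catalytic subunits, in RPKM, was 6.08, 4.65 and 5.31% in pacing and 4.92, 6.32 and 5.24% in sham. The means were 5.35 ± 0.718% and 5.49 ± 0.736% (SD, n = 3 each), and an exact two-sided permutation test gave p = 0.8, where the smallest p that 3 against 3 libraries allow is 0.1. By pair, PSMB8 made up 5.92 ± 0.514% of PSMB8 plus PSMB5 in pacing and 5.38 ± 1.58% in sham. PSMB9 made up 13.3 ± 1.30% of its pair in pacing and 14.9 ± 2.27% in sham, and PSMB10 2.38 ± 0.643% against 2.91 ± 0.187%. Exact permutation p-values for the 3 pairs were 0.7, 0.3 and 0.2, or 0.7, 0.45 and 0.45 after Benjamini-Hochberg adjustment over the pairs.

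**Figure D4:**
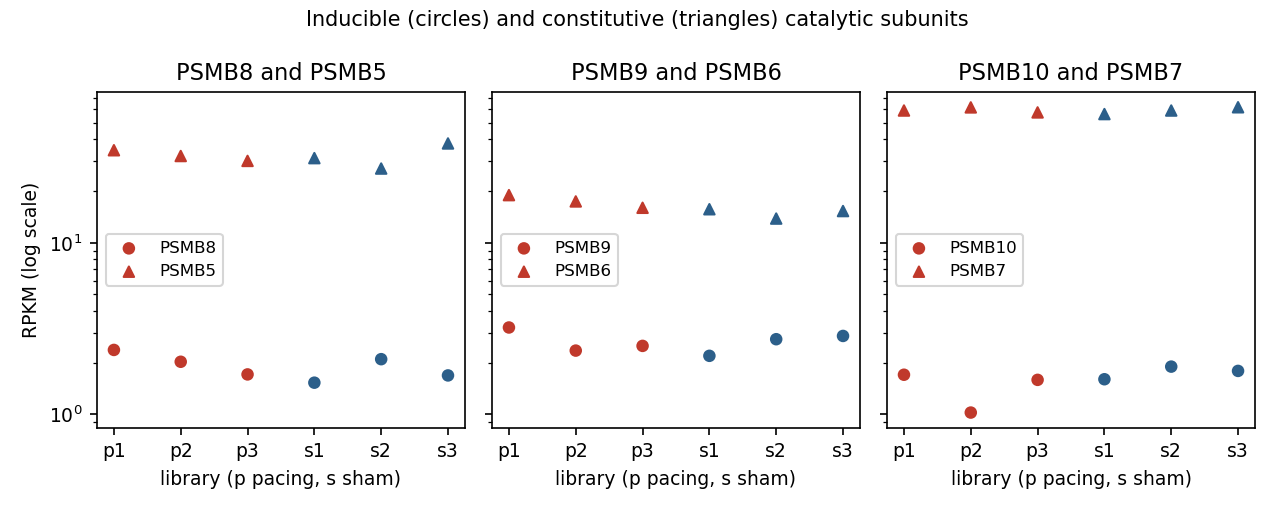
RPKM on a log axis of each inducible subunit (circles) and the constitutive subunit it replaces (triangles) in the 3 pacing libraries (p1 to p3) and 3 sham libraries (s1 to s3). The constitutive subunit is at least 5.04-fold above its inducible counterpart in each library, and the arms overlap for all 3 inducible subunits.

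The rest of the proteasome was described from a list of 11 core genes and a list of 9 activator and assembly genes. Of the 11 core genes 9 were higher and 2 lower in pacing by arm mean, and 0 passed. Over all genes tested 41.1% were higher in pacing. The arms were apart for PSMA6 and PSMB3, higher in pacing, and for PSMA4, lower. Over all genes tested 4.92% were apart and higher and 11.3% apart and lower. The alpha subunit gene PSMA4 had the smallest p of the 11 and was lower, at 30.5 ± 1.70 against 39.9 ± 2.22 RPKM (log2 difference -0.38, limma adjusted p = 0.359). The table places PSMA4 on chromosome X from 53245249 to 53246357, a short span, and reads it may share with near-identical copies make its level uncertain. PSMA6 stood at 82.2 ± 0.866 against 72.3 ± 5.47 RPKM and PSMB3 at 29.3 ± 2.03 against 26.1 ± 1.32. Of the 9 activator and assembly genes 3 were higher and 6 lower, and 0 passed, with 1 apart and higher and 1 apart and lower. PSME1 and PSME2, the interferon-inducible cap of the proteasome, stood at 48.5 against 52.9 and at 8.72 against 9.55 RPKM by arm mean, and both overlapped between the arms. PSME4 stood at 3.56 ± 0.0800 against 4.11 ± 0.191 RPKM, apart between the arms and not passing, and PSMG4 at 14.6 ± 0.653 against 13.3 ± 1.71.

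NLRC5, the class I transactivator, lies on the minus strand of chromosome 2 from 59279535 to 59359327, in 50 exon blocks. It stood at 0.201, 0.183 and 0.163 RPKM in pacing and at 0.128, 0.166 and 0.190 RPKM in sham. The arms overlapped. These values rest on 41 to 63 reads per library, and 158 reads were counted in each arm. The ratio of read shares, pacing over sham, was 1.16 with an exact 95% interval of 0.924 to 1.45, which covers counting error only. NLRC5 was below the filter of 0.5 RPKM, and with no filter limma gave a log2 difference of 0.03 (adjusted p = 0.841). Its class II relative CIITA was lower still, at 0.0720 against 0.0419 RPKM by arm mean.

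Factors that bind the shared promoter elements of MHC genes were described with the transactivator CIITA as a list of 9, of which 8 passed the filter. Of these, 2 were higher and 6 lower in pacing by arm mean, and 0 passed (median log2 difference -0.11). Over all genes tested 41.1% were higher in pacing. The arms were apart, with pacing lower, for 3 of the 8, and for 11.3% of all genes tested. NFYA, a subunit of the CCAAT-binding factor, stood at 5.16, 4.50 and 4.51 RPKM with pacing and at 5.42, 11.6 and 8.95 with sham, so that sham replicate 1 lay close to the pacing libraries (log2 difference -0.70, limma adjusted p = 0.455). RFXAP, a subunit of the X-box factor, stood at 3.03 ± 0.279 against 3.84 ± 0.214 RPKM, and CREB1 averaged 6.73 against 7.77 RPKM.

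Interferon ligands, receptors and signal transducers act upstream of these genes. Of 5 ligand genes listed, 1 (IFNE) was found in the table, at 0 RPKM in 3 of the 6 libraries and at no more than 0.0446 in the other 3, and the other 4 have no value here. Of 15 tested receptor and signalling genes 6 were higher and 9 lower in pacing by arm mean, 0 passed, and the median log2 difference was -0.04. Over all genes tested 41.1% were higher in pacing. The arms were apart for 1 of the 15 with pacing higher, IFNAR1, and for 2 with pacing lower, IFNAR2 and PTPN2. Over all genes tested 4.92% were apart and higher and 11.3% apart and lower. The transcription factor IRF1, which acts on class I promoters, averaged 2.85 against 3.31 RPKM and overlapped between the arms. The receptor chain IFNAR2 stood at 4.66 ± 0.324 against 5.94 ± 0.419 RPKM, the phosphatase PTPN2 at 9.75 ± 0.582 against 11.8 ± 1.12 and the kinase JAK2 at 9.76 ± 0.825 against 7.99 ± 1.47. Of the 4 listed factors NFE2L1, NFE2L2, RELA and NFKB1, which act on proteasome or NF-kB target genes, all were lower in pacing by arm mean and 0 passed or were apart. NFKB1 stood at 2.69 ± 0.289 against 3.30 ± 0.807 RPKM, NFE2L1 at 75.2 ± 2.35 against 80.0 ± 8.92 and NFE2L2 at 12.3 ± 0.432 against 14.5 ± 5.66.

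Of the 8 genes, 5 lie on chromosome 12. TAP2, PSMB8, TAP1 and PSMB9 lie in that order within the MHC on chromosome 12, with 1986 bases between TAP2 and PSMB8, 1216 between PSMB8 and TAP1 and 121 between TAP1 and PSMB9. TAP1 and PSMB9 run away from each other and share that short interval between their starts. TAPBP lies 301355 bases beyond PSMB9. TAP2 was lower in pacing with the arms apart, while its close neighbours PSMB8, TAP1 and PSMB9 overlapped. No exon of the 8 genes overlapped an exon of another gene in the table.

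Within 100 kb of these 5 genes and between them, from 2307512 to 2851808, the table held 30 other genes, of which 24 were tested. Of these 7 were higher and 17 lower in pacing by arm mean of log2(RPKM + 1), and 0 passed. Over all genes tested 41.1% were higher in pacing. The arms were apart for 1 of the 24, with pacing lower, and for 11.3% of all genes tested. It was WDR46, a nucleolar protein gene with 11.5 ± 0.327 RPKM after pacing and 13.4 ± 0.806 after the sham operation. The median log2 difference of the 24 was -0.11, against -0.04 over all genes tested. The next smallest p-values were those of LOC111098219, at 2.19 ± 0.416 against 3.15 ± 1.01 RPKM, and KIFC1, a kinesin gene, at 2.64 ± 0.264 against 3.46 ± 0.936. LOC111098219, from 2713551 to 2716957, lies within the span of RPS18 on the same strand, so its reads are uncertain.

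**Figure D5:**
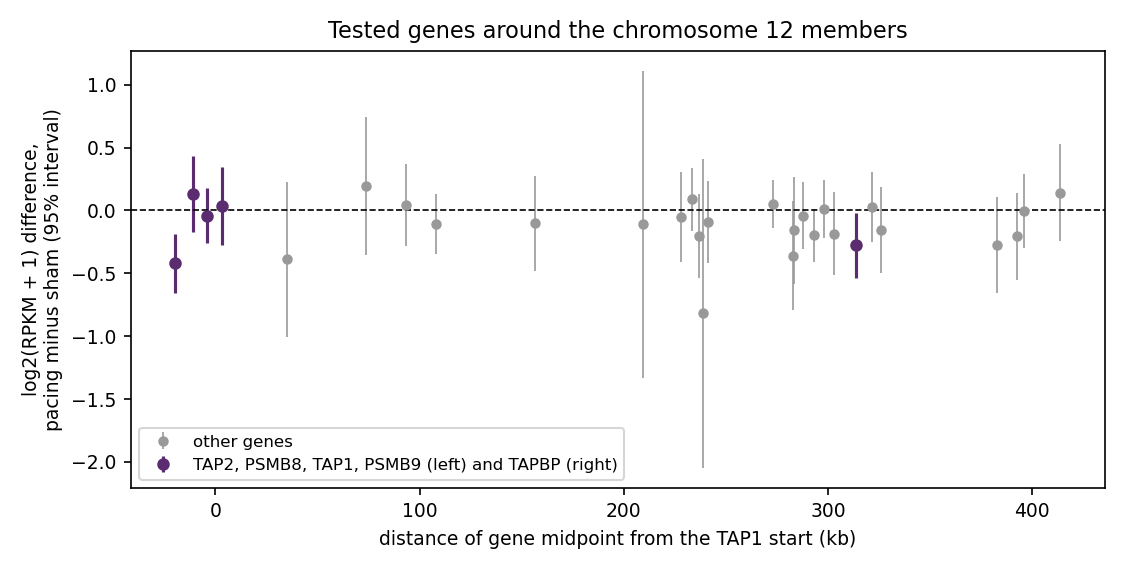
Log2(RPKM + 1) difference, pacing minus sham, with its 95% interval (limma, 3 libraries per arm) for the tested genes around the 5 class I processing genes on chromosome 12, against distance in kb from the TAP1 start. TAP2 at the left and TAPBP near 310 kb lie below 0 with intervals that do not reach it, and the 3 genes next to TAP2 lie near 0.

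The genes also differed in how far their replicates spread. B2M varied more among sham libraries (coefficient of variation 14.5%) than among pacing libraries (5.84%), where counting alone would give 1.63% and 1.53%. TAP2 varied by 8.63% in sham and 3.83% in pacing, against counting errors of 2.70% and 3.42%. PSMB10 varied by 25.2% in pacing, on 55 to 97 reads, against a counting error of 11.5%. NLRC5 varied by 10.6% in pacing and 19.4% in sham, where counting alone would give 13.8% in each, so its replicate spread was near what its depth gives.

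Cell type markers were read in the same libraries, because in bulk tissue fewer cells of a type and less RNA per cell cannot be told apart. Microglial markers were in the table for 13 of 14 genes, 7 higher and 6 lower in pacing by arm mean, with summed levels of 131.9 to 152.4 RPKM in pacing and 120.4 to 197.4 in sham. Among the microglial markers, TMEM119 (1.61 ± 0.171 against 0.897 ± 0.201 RPKM) and P2RY12 (7.45 ± 0.640 against 5.08 ± 1.65) were higher in all pacing libraries as B2M was. Endothelial markers were higher in 4 of 10, with sums of 34.3 to 36.5 RPKM in pacing and 30.3 to 39.4 in sham, PECAM1 at 7.51 ± 0.351 against 5.79 ± 0.580, ESAM at 0.529 ± 0.214 against 0.843 ± 0.204 and TEK at 1.31 ± 0.0632 against 1.63 ± 0.243. Of 8 pericyte and smooth muscle markers 7 were higher, and 2 were apart and higher. Over all genes tested 41.1% were higher in pacing and 4.92% were apart and higher. The pericyte and smooth muscle sums were 42.5 to 43.8 RPKM in pacing and 35.0 to 40.0 in sham, and did not overlap. MYH11 stood at 13.8 ± 0.435 against 11.8 ± 0.738, RGS5 at 9.75 ± 0.356 against 8.25 ± 0.962 and ACTA2 at 3.97 ± 1.24 against 3.04 ± 0.333.

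The T and NK cell marker sum was also apart between the arms. It lay at 46.4 to 52.8 RPKM in pacing and 39.9 to 41.5 in sham, of which CD247 alone made up 45.3 ± 3.31 and 38.2 ± 0.688. Without CD247 the sum was 3.72, 4.28 and 2.77 RPKM in pacing and 2.28, 2.53 and 2.42 in sham, a sum chosen after the values were seen. Of 13 such genes present, 4 were tested, 3 of them higher and 1 lower, and 0 passed. Over all genes tested 41.1% were higher in pacing. CD2 stood at 0.967 ± 0.408 against 0.384 ± 0.0249 RPKM and LCK at 0.752 ± 0.0950 against 0.579 ± 0.0969. The lower gene was CD5, at 0.531 ± 0.0615 against 0.686 ± 0.172 RPKM. The CD3 genes CD3D, CD3E and CD3G, unlike CD247, were below 0.363 RPKM in every library. The part of any of these cell types in the B2M, TAP2 or TAPBP differences was not tested.

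Of the remaining marker lists, all summed levels overlapped between the arms and 0 genes passed. Neuron markers summed to 1899 to 2144 RPKM in pacing and 1283 to 2047 in sham, with SNAP25 at 976 ± 139 against 776 ± 170 RPKM. Astrocyte sums were 1535 to 1766 against 1385 to 2401 RPKM, with SLC1A3 at 504.5 ± 25.5 against 410.8 ± 61.6. Oligodendrocyte sums were 1545 to 1914 against 1113 to 2805 RPKM, with OPALIN at 65.9 ± 3.66 against 58.4 ± 37.8. Monocyte and granulocyte sums were 37.2 to 40.9 against 29.7 to 65.8 RPKM, with CD14 at 1.38 ± 0.122 against 2.89 ± 1.27, and B cell and plasma sums 13.8 to 16.3 against 10.2 to 14.2 RPKM, with JCHAIN at 13.2 ± 1.47 against 10.9 ± 1.73.

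The mean of the 7 tested genes, each centred on its own average, was 0.09, -0.10 and -0.07 on the log2 scale in pacing and -0.02, 0.02 and 0.08 in sham, with no separation of the arms. Of 12760 other tested genes with a symbol, those most like this mean pattern over the 6 libraries were MEN1 (Pearson r 0.998), TPGS1 (0.987), ZNF579 (0.971), SERP2 (0.971), MAP3K15 (0.970), UNC119 (0.968), PSME2 (0.966), SGSM1 (0.966), TAGLN3 (0.965) and TRIM28 (0.964). This is a description over 6 points, picked as the highest of all candidates, and carries no test.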

How the data were processed

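Hippocampal mRNA of 3 pacing and 3 sham samples was analysed. The submitters' processing notes name featureCounts, STAR 2.5.3a and Trimmomatic 0.36, with no order, annotation or strand setting. The values deposited by the authors are RPKM. RPKM times gene length gave whole reads (within 0.01 of a read) for 100% of values in every library, which gives the depths above. In R 4.3.3, limma 3.58.1 (trend) was fitted to log2(RPKM + 1) of every gene averaging 0.5 RPKM or more over the 6 libraries, a scale which understates changes of low genes. Tests were two-sided, with Benjamini-Hochberg adjustment at 0.05 over all genes tested. The fit was tested on simulated data. Samples were grouped by their titles. Shares were compared by exact permutation tests. Exact 95% intervals of read ratios cover counting error only.

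The 8 genes, the lists and the rule for named genes were chosen with earlier results of these data known. The rule named all 8 genes, the constitutive subunits, the heavy chains, up to 3 genes with the smallest p of each list and of the neighbouring genes, and the 10 genes most like the mean pattern; other names were chosen after their values were seen. Some genes the rule took from the marker lists are given by their list's sums only, and some list genes are not reported here. Alternatives changed the pseudocount, filter, scaling, weights, trend and pairing, and left out each library. No library pair of an arm agreed within sampling noise (chi-square per degree of freedom 10.4 to 164.0).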

Additional observations from a re-analysis of the deposited data

How the results depend on the processing

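Of the 7 tested genes, 0 passed under any of the 16 alternatives, and B2M, TAP2, TAPBP, PSMB8 and PSMB10 kept their direction in all 16. B2M lay between 0.27 and 0.46, TAP2 between -0.49 and -0.29 and TAPBP between -0.41 and -0.12 on the log2 scale, with adjusted p from 0.161 to 0.975, 0.144 to 0.975 and 0.197 to 0.975 in limma. TAP1 turned to 0.0129 with median-of-ratios scaling and 0.00611 with quantile scaling, where the median of all genes moved from -0.0368 to 0.0129 and -0.000145 and the share of genes higher in pacing from 41.1% to 53.1% and 49.9%. PSMB9 ranged from -0.0652 to 0.0986 when 1 library was left out (-0.0652 without pacing replicate 1, -0.0506 without sham replicate 1). The inducible share, -0.144 percentage points in pacing minus sham, ranged from -0.512 to 0.271 when 1 library was left out (0.206 without pacing replicate 2, 0.271 without sham replicate 2), and for PSMB8 with PSMB5 alone the difference was 0.542. The number of passing genes, 4, was 7 with no filter, 23 with array weights, and 3 to 95 when 1 library was left out (95 without sham replicate 1, 9 without sham replicate 2); none was a class I processing gene. From 3 to 4 of the 7 genes were apart under every alternative. The replicate block, where same-numbered samples correlated at -0.111, 0.0636 and -0.0109 and so were not taken as pairs, gave 7 passing genes and left TAP2 at adjusted p = 0.495. The planned count test was not run because the deposited unit is RPKM; limma voom on recovered reads, added after the data were seen, gave adjusted p = 0.385 for TAP2. Depth limits NLRC5 and the proteasome subunits, which rest on 41 to 267 reads per library. The causes of these changes were not tested.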

Other observations

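Transcripts of the CD3 genes CD3D, CD3E and CD3G were low in both arms. CD3D had 0, 6 and 0 reads in pacing and 4, 0 and 2 in sham, 6 in each arm. CD3E had 10, 17 and 16 reads in pacing and 3, 2 and 4 in sham. CD3G had 6, 2 and 10 reads in pacing and 0 in each sham library, where a count of 0 allows up to 3 reads. CD2 had 61, 92 and 34 against 30, 30 and 24. CD4 went the other way, at 0.0750 RPKM in pacing and 0.267 in sham by mean. These genes were chosen after their values were seen, none but CD2 passed the level filter, and CD2 did not pass the test (limma, adjusted p = 0.438).

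The sum of DLA88 and DLA-12 was 102.8, 99.1 and 76.1 RPKM in pacing and 73.4, 61.1 and 83.3 in sham. The low DLA-12 and high DLA88 of sham replicate 1 thus gave a sum within the range of the other sham libraries. B2M relative to TAP2 within a library was 14.1, 15.5 and 13.6 in pacing and 8.09, 7.30 and 8.26 in sham, a ratio picked after the values were seen.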
